A study of Mus musculus with 150 samples.

Results

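The adrenal gland was represented by 5 arrays, those titled Adrenal, among the 150 one-colour Affymetrix arrays of a survey of mouse tissues. There was 1 adrenal array for each of the inbred strains 129, B6, DBA, AJ and C3H. They were set against the 45 arrays of the other 9 body tissues, namely brown adipose tissue, heart, kidney, liver, muscle, spleen, testes, thymus and white adipose tissue, each with 1 array of the same 5 strains. The mice were wild type, and the labels name no treatment, age or sex. The labels do not say whether an array held RNA of 1 animal or of a pool. The p-values measure the spread between arrays that remains after terms for tissue and strain. Strain differences that vary from tissue to tissue are part of that spread. The strain written B6 or BL6 was taken as a single strain.

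The adrenal gland joins an outer cortex, which makes steroid hormones from cholesterol, with an inner medulla, which makes and releases catecholamines. Pituitary ACTH drives the cortex through its receptor, cyclic AMP and the transcription factor steroidogenic factor 1, and angiotensin II and potassium drive the outermost zone, the zona glomerulosa. The chromaffin cells of the medulla derive from the neural crest and store catecholamines with granin proteins and neuropeptides in dense core granules.

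Values are intensities in the arbitrary units of the arrays, on a linear scale, as deposited. The 75th percentile of intensity was 176.1 to 178.5 on the 5 adrenal arrays and 165.3 to 182.2 on the other 45. The median intensity was 46.8 to 55.3 in adrenal and 38.4 to 60.6 on the others. Log2 was taken after every intensity under a floor of 10.4, the 20th percentile, had been set to the floor. The ratio of the 3′ to the 5′ probe set of Gapdh, a measure of RNA integrity, was 0.95 to 1.24 in adrenal and 0.797 to 1.27 in the other tissues. In each sentence that lists 5 adrenal intensities, they stand in the order 129, B6, DBA, AJ, C3H. A difference is the adrenal log2 mean minus the mean of the 9 other tissue means, with strain as a term in the model, and its error is the standard error of that fit. A gene was called at an adjusted p under 0.05 (limma, Benjamini-Hochberg) and a log2 difference of at least 1.

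Of 6680 genes tested, 527 were called higher in adrenal than the mean of the other 9 tissues (7.89% of those tested) and 385 were called lower (5.76%). These 2 shares are the background for the counts of list members called higher or lower below. Measured list members are those tested, with a log2 mean over 5.73 in 1 or more body tissues, adrenal included. Members dim everywhere were left out and members bright only in adrenal kept, so shares and medians can lie above those of whole lists. Of genes on the arrays, 12 of 20 were measured for regulated exocytosis and 12 of 23 for sympathoadrenal factors. For neuropeptides it was 6 of 11, and for granins and peptide processing 11 of 14. The median difference of all 6680 genes was -0.02. A stricter rule, under which adrenal had to be called higher than each of the 9 tissues separately, was met by 62 genes (0.928% of those tested). No gene was lower than each of the 9 by that rule in limma (0% of those tested, and at most 2 without any 1 array or tissue). At an unadjusted p under 0.05 in limma, 10 were lower than each with no threshold on the difference, and 0 with a log2 difference of at least 1. Of the 62 genes, 49 had their lowest adrenal array above the highest of the 45 others, and 56 had adrenal as the highest of the 10 tissues in all 5 strains. The 62 were selected on these same arrays, so both counts describe them and are no independent support. Without adrenal 129 the stricter rule gave 58 genes, 57 of them among the 62.

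A marker of the cortex and 2 markers of the medulla were described first. They were chosen with earlier results of these data known, so their values are no independent check of the labelled tissue. Cyp11a1, the side-chain cleavage enzyme that starts steroid synthesis from cholesterol, measured 4173, 3978, 3904, 3286 and 4194. Chgb, a granin of dense core granules, measured 3439, 3647, 3932, 2577 and 3598. Scg2, a second granin, measured 1785, 1840.2, 1486, 1384 and 1801. The highest of the 45 other arrays reached 606 for Cyp11a1, 121 for Chgb and 31.4 for Scg2. No adrenal array thus overlapped with any other tissue for any of the 3 at the probe set used. The cortex marker and both medulla markers were high on every adrenal array. In a bulk sample, fewer cells of a type and less RNA per cell cannot be told apart. Probe sets of 1 gene did not always agree. The lowest value over the probe sets of a gene, adrenal minus the other arrays on the log2 scale, was 0.85 for Chgb, -0.01 for Fdx1, -0.05 for Nr0b1, -0.04 for Maoa, -0.08 for Peg3, -0.43 for Penk, 0.02 for Ly6d and -0.24 for Abca1, all of them called higher at the brightest probe set, which was used.

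Of 12 measured members of an 18-gene list of steroid synthesis, 6 were higher (Star, Cyp11a1, Hsd3b1, Hsd3b6, Cyp21a1 and Fdx1), 1 was lower (Hsd3b2) and 5 were not called. The median difference of the 12 was 1.63, beside -0.02 for all genes. Star, which moves cholesterol into mitochondria, measured 4233, 3834, 3403, 3329.7 and 3919, against at most 214 in any other tissue. Its difference was 6.61 (SE 0.24, adjusted p = 1.53e-25). The difference of Cyp11a1 was 7.62 (SE 0.19, adjusted p = 1.23e-31), the largest of any gene. The 5 adrenal arrays lay close together for both genes and far above every other array.

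Hsd3b1, which converts pregnenolone to progesterone, measured 4431, 4105, 4354, 3490.1 and 4229.6, with a highest other array of 230.0. Its difference was 6.62 (SE 0.24, adjusted p = 9.79e-26). Cyp21a1, the 21-hydroxylase that commits the pathway to corticosteroids, measured 7247, 6801, 6249, 5323 and 5289, against at most 343 elsewhere, a difference of 5.35 (SE 0.14, adjusted p = 6.89e-31). Neither gene overlapped with another tissue. Hsd3b paralogs and the Cyp21 pseudogene are near copies of these genes, so part of either signal may come from a copy.

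Fdx1, the ferredoxin that passes electrons to mitochondrial steroid hydroxylases, measured 5082, 5603, 6068, 4020.5 and 5015 in adrenal and 2733 to 4177 in liver. Adrenal was above liver in every strain, but the AJ adrenal array lay below the highest liver array. Its difference from the mean of the 9 was 2.46 (SE 0.10, adjusted p = 6.15e-24) and its difference from liver was 0.56 (adjusted p = 3.60e-04), below the threshold of 1. Hsd3b6, a 3-beta-hydroxysteroid dehydrogenase, measured 331, 194, 442, 552 and 641, and here the liver arrays, at 199 to 349, overlapped with adrenal. Cyp17a1, which opens the route to androgens, measured only 28.1, 24.6, 21.2, 20.8 and 21.6, against 1453 to 2466 in testes. Its difference from the mean of the 9 was -0.50 (SE 0.34, adjusted p = 2.19e-01), so it was not called, and from testes it was -6.28 (adjusted p = 2.79e-16).

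The last steps to corticosterone and aldosterone, Cyp11b1 and Cyp11b2, were not analysed here, since no probe set carried either symbol alone. Hsd11b1, which regenerates active glucocorticoid, measured 424, 407, 769, 605 and 713 in adrenal, with a difference of 0.80 (SE 0.19, adjusted p = 4.46e-04) that did not reach the threshold. Liver was higher for this gene, at 2451 to 4847. Hsd11b2, which inactivates glucocorticoid in kidney, was at the floor on all 5 adrenal arrays.

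Genes that bring cholesterol to the cortical cell were higher in 7 of 15 measured members, with none lower and a median difference of 0.80. Scarb1, the receptor that takes up cholesterol esters from HDL, measured 5500.0, 4590.2, 5459.6, 4059 and 5059.7. The next tissue was liver, at 1369 to 1889, with no overlap. The difference from the mean of the 9 was 3.63 (SE 0.13, adjusted p = 2.31e-25), and the smallest difference, from liver, was 1.55. Scarb1 was the only one of the 7 that passed against each of the 9 tissues. The others (Apoc1, Lipe, Tspo, Plin2, Dbi and Abca1) were exceeded by at least 1 tissue. Apoc1, a lipoprotein component, measured 1589.8, 1234, 1623, 1561 and 1106, far below liver at 8259 to 10432. Lipe, the hormone-sensitive lipase that frees stored cholesterol, measured 701, 715, 736, 1023 and 1037, below white fat at 2118 to 3692. Tspo, a protein of the outer mitochondrial membrane, measured 3708, 3084, 3654, 2830.2 and 3099.8, below brown fat at 4529.7 to 7236.

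Of 17 measured genes of cholesterol synthesis, 2 were higher and none lower, where 7.89% of all genes tested were higher. The median difference of the 17 was 0.39. Dhcr7, the last enzyme of the pathway, measured 682, 764, 810.2, 656 and 764, against at most 519 in another tissue, a difference of 3.71 (SE 0.20, adjusted p = 3.74e-19). Msmo1, a sterol methyl oxidase, measured 389.5, 308, 469, 266 and 333 with a difference of 2.68 (SE 0.21, adjusted p = 1.03e-13), although liver was higher at 519 to 1217. Hmgcs1, at the head of the pathway, measured 903, 428, 1161, 704 and 961 with a difference of 0.71 (SE 0.24, adjusted p = 1.28e-02), under the threshold. The 3 genes thus differed, with Dhcr7 alone above every array of every tissue.

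The ACTH receptor and its partner were among the cortex genes called higher. On a list of ACTH and cyclic AMP signalling, 5 of 20 measured members were higher and 1 lower. Mc2r, the ACTH receptor, measured 642, 474, 807, 849.8 and 812, with a difference of 4.94 (SE 0.19, adjusted p = 1.96e-24). White fat came next, at 77.2 to 213, below every adrenal array. Mrap, which carries Mc2r to the cell surface, measured 989, 992, 681, 1080.0 and 942 and overlapped with brown fat at 471 to 1344. Its difference from the mean of the 9 was 2.92 (SE 0.20, adjusted p = 9.93e-16). Crem, a cyclic AMP responsive transcription factor, measured 196, 243, 98.2, 179 and 176, with a difference of 2.09 (SE 0.19, adjusted p = 2.14e-12), and its mean was higher than that of each tissue by at least 1.52. White fat arrays ran from 40.3 to 105 for Crem, so the DBA adrenal array lay within their range. Prkar2a, a regulatory subunit of protein kinase A, measured 51.2, 21.4, 38.5, 25.2 and 13.8, a difference of -2.41 (SE 0.20). Testes, at 1129 to 2225, held the highest levels of this gene.

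Markers of the zona glomerulosa were higher in 5 of 9 measured members, with a median difference of 2.68. Agtr2, an angiotensin II receptor that in the adrenal is also found in the medulla, measured 88.4, 41.9, 41.3, 73.1 and 119.8, while 44 of the other 45 arrays stood at the floor. Its difference was 2.68 (SE 0.12, adjusted p = 8.94e-23). The other probe set for Agtr2 gave 0.00, and its call against each tissue was lost with the median of probe sets and with the filter at the 75th percentile. Wnt4, a signal of the outer cortex, measured 316, 318, 398, 146 and 279.9, and only the AJ adrenal array fell within the range of muscle, 91.3 to 161. The difference of Wnt4 was 4.12 (SE 0.13, adjusted p = 2.07e-27). Kcnk3, a background potassium channel, measured 1036, 1279, 719, 591 and 447, with a difference of 4.80 (SE 0.18, adjusted p = 1.06e-24), and overlapped with brown fat at 402 to 827. Vsnl1, a calcium sensor, measured 129, 119, 230.0, 179 and 157, above every other body array (at most 49.0). Dab2, an endocytic adaptor, measured 722, 879.7, 909.9, 864 and 1018, no higher than kidney at 789 to 1291.

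Transcription factors of the cortex were higher in 7 of 17 measured members, and 1 was lower. Nr5a1, which encodes steroidogenic factor 1, measured 1580.1, 1659.9, 1461, 1338 and 1545, against 548 to 779 in testes, with a difference of 1.93 (SE 0.11, adjusted p = 6.02e-19). This value depended on the probe set. The 5 probe sets for Nr5a1 gave adrenal minus other arrays from -0.10 to 5.15, and the one with the highest mean, which stood for the gene here, gave 1.93. Nr0b1, which encodes the repressor DAX-1, measured 47.2, 29.2, 53.5, 59.7 and 64.4, with a difference of 1.33 (SE 0.22, adjusted p = 4.72e-06). Testes was higher than adrenal for Nr0b1, at 189 to 258. Nr4a1, an early gene induced by ACTH, varied most among these factors, at 429, 1065, 944, 559 and 324, and its B6 and DBA arrays lay within the range of muscle, 599 to 1113, with the other 3 below it. Hoxb9, a homeobox gene of trunk position, measured 176, 188, 128, 196 and 258, above every other array (at most 47.9), a difference of 3.78 (SE 0.25, adjusted p = 2.69e-16). Tbx3 and Pbx3, developmental transcription factors outside that list, were also above every other body array, at 265 to 393 and 367 to 965. Nr3c1, the glucocorticoid receptor, measured 12.9, 13.9, 21.3, 7.27 and 8.03, a difference of -1.85 (SE 0.27, adjusted p = 3.61e-07). With the floor at the 40th percentile that difference was -0.77 and the call was lost.

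**Figure D1:**
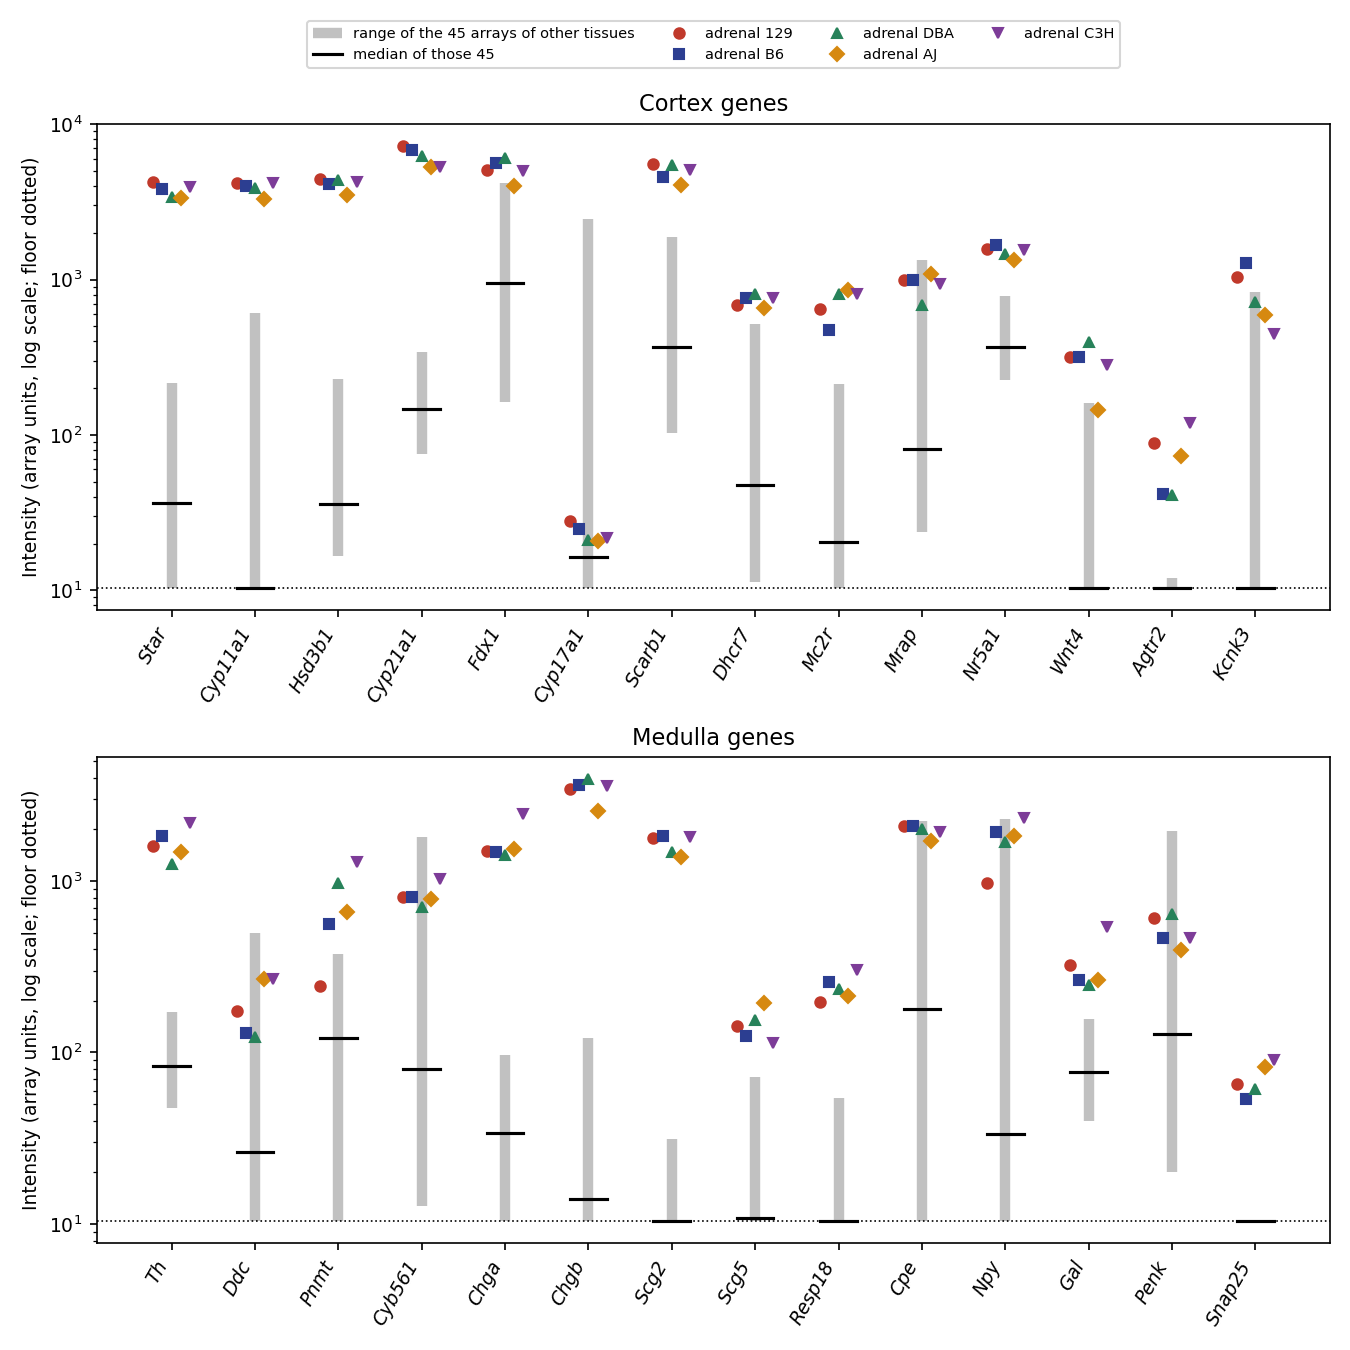
Intensity (vertical axis, array units, log scale) of 14 cortex genes (top) and 14 medulla genes (bottom); coloured points are the 5 adrenal arrays by strain, grey bars the range and black ticks the median of the 45 arrays of other body tissues. All 5 adrenal points stand above the grey bar for Star, Cyp11a1, Hsd3b1, Cyp21a1, Scarb1, Chga, Chgb and Scg2, while Cyp17a1 lies near the bottom of its bar.

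Testes is the other steroid-making tissue of the series. Against testes alone, 1784 genes were called higher in adrenal (26.7% of those tested). Of the 12 steroid synthesis genes, 8 were higher than in testes and 2 lower, where 20.8% of all genes tested were called lower. Star exceeded testes by 4.86 (adjusted p = 2.12e-17) and Cyp11a1 by 3.36 (adjusted p = 1.03e-15), although testes held the highest Cyp11a1 of the other tissues, at 219.7 to 606. Inha, the inhibin alpha subunit, went the other way, with 99.2, 74.2, 129, 88.4 and 141 in adrenal and 423 to 548 in testes, a difference of -2.21 (adjusted p = 1.45e-12). Inha, Nr0b1 and Cyp17a1 were thus all higher in testes, while Nr5a1 was higher in adrenal by 1.20 (adjusted p = 6.77e-10).

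The medulla was marked by catecholamine enzymes, granins and neuropeptides. Of 10 measured genes of catecholamine synthesis and handling, 6 were higher and none lower, with a median difference of 1.66. Th, tyrosine hydroxylase, the rate-limiting enzyme, measured 1611, 1826, 1249.7, 1482 and 2168, against at most 172 in any other tissue. Its difference was 4.25 (SE 0.16, adjusted p = 1.42e-24), and no array overlapped. Ddc, which forms dopamine from DOPA, measured 175, 129, 122, 269 and 268, with a difference of 2.12 (SE 0.23, adjusted p = 2.36e-10), below liver at 287 to 499.9. Cyb561, the granule cytochrome that supplies electrons for noradrenaline synthesis, measured 803, 807, 706, 790.1 and 1035, with a difference of 3.27 (SE 0.29, adjusted p = 2.14e-12). Its white fat arrays ran from 127 to 1807 and overlapped with adrenal. Gch1, which makes the cofactor of tyrosine hydroxylase, and Maoa, which degrades catecholamines, had differences of 1.62 (SE 0.27) and 1.71 (SE 0.16). Liver was higher for Gch1, at 606 to 1001, with adrenal minus liver at -2.53, and adrenal minus spleen was -0.50. Maoa was not called above white fat, with a difference of 0.40.

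Pnmt, which converts noradrenaline to adrenaline, varied more between adrenal arrays than any other enzyme of that list, at 244, 561, 976, 662 and 1285. The 129 array was the lowest and lay within the range of spleen, 121 to 275, and the C3H array was the highest. The difference from the mean of the 9 was 2.98 (SE 0.51, adjusted p = 5.90e-06). Its call against each of the 9 tissues was lost in 13 of 24 alternative analyses, including those without the B6, the DBA, the AJ or the C3H adrenal array and those without the heart, kidney, thymus or white fat arrays. A second probe set for Pnmt kept the same order of arrays, with log2 values of 10.06, 10.26, 11.05, 10.60 and 11.42 against at most 7.49 in another tissue, and its adrenal arrays did not overlap with the others.

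Genes of granins and peptide processing were higher in 8 of 11 measured members, with none lower and a median difference of 3.60, and 6 of the 8 passed against each of the 9 tissues. The differences of Chgb and Scg2 were 7.55 (SE 0.21, adjusted p = 1.21e-29) and 7.23 (SE 0.13, adjusted p = 1.36e-36). Scg2 stood at the floor on 40 of the 45 other arrays, so the size of its difference rests on the floor. Chga, chromogranin A, measured 1508, 1482, 1415, 1533 and 2471, against at most 97.3, a difference of 5.66 (SE 0.31, adjusted p = 4.85e-19). The C3H array stood above the other 4 for Chga.

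Scg5, a chaperone of prohormone convertase 2, measured 142, 125, 155, 195 and 114, with a difference of 3.26 (SE 0.18, adjusted p = 6.02e-19). Resp18, a protein of endocrine secretory granules, measured 197, 259, 234, 212 and 301, with a difference of 4.05 (SE 0.24, adjusted p = 1.05e-17). Pcsk1n, an inhibitor of prohormone convertase 1, measured 219, 172, 107, 159.6 and 337, with a difference of 3.81 (SE 0.14, adjusted p = 5.14e-25). Scg5 and Resp18 were above every other body array, and for Pcsk1n the DBA adrenal array lay within the range of testes, 37.2 to 128. Cpe, carboxypeptidase E, measured 2090.5, 2088, 2019.7, 1703 and 1940.1 and overlapped with muscle at 1213 to 2243. Its difference from the mean of the 9 was 3.60 (SE 0.14, adjusted p = 5.74e-24).

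Among neuropeptides, 4 of 6 measured genes were higher and none lower. Npy, neuropeptide Y, measured 977, 1941, 1680.2, 1826 and 2340.1, lowest in 129, with a difference of 5.34 (SE 0.60, adjusted p = 1.02e-09). White fat arrays ran from 15.6 to 2309.9 for Npy, so its highest array overlapped with adrenal. Gal, galanin, measured 324, 266, 249, 264 and 541, above all 45 others (at most 158), a difference of 2.04 (SE 0.18, adjusted p = 1.36e-12). The other probe set for Gal gave -0.01, and with the median of probe sets its call against each tissue was lost. Penk, proenkephalin, measured 606, 463, 645, 394 and 464, with a difference of 1.73 (SE 0.24, adjusted p = 8.30e-08), well below testes at 1311 to 1962.

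Of 12 measured genes of regulated exocytosis, 3 were higher and none lower, with a median difference of 0.43. Snap25, a membrane fusion protein of neurons and chromaffin cells, measured 65.2, 53.3, 61.3, 82.0 and 90.4, while all 45 other arrays stood at or below the floor. Adrenal was at least 6.65-fold higher than that floor, and Snap25 passed the filter for testing through adrenal alone. On a list of sympathoadrenal factors, 5 of 12 measured genes were higher and 1, Gfra2, was lower. Uchl1, a member of that list and a neuronal ubiquitin hydrolase, measured 193, 312, 185, 259 and 338, a difference of 2.54 (SE 0.22, adjusted p = 1.22e-12). Its B6, AJ and C3H arrays lay within the range of testes, 229 to 425, and the other 2 below it. Ina, an intermediate filament protein of neurons, measured 53.4, 77.2, 44.0, 68.2 and 51.4, and Robo1, an axon guidance receptor, measured 102, 113, 133, 101 and 104. Both lay above every other body array (at most 27.9 and 23.4).

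The stretches just upstream of 4 medulla genes are shown because all 4 were higher than each of the 9 tissues and all hold letters of the cyclic AMP response element, the site bound by CREB and CREM, near the start of transcription. Scg2, Chgb and Th hold the whole palindrome, and Chga only its first 6 letters. The sequences are from RefSeq (GRCm38.p6), 120 bases ending at the base before the start site, written 5′ to 3′ on the strand of the gene, with these letters in capitals. They lie at chr1:79440027-79440146 (minus strand), chr2:132781522-132781641 (plus), chr7:142899996-142900115 (minus) and chr12:102554821-102554940 (plus).
Scg2: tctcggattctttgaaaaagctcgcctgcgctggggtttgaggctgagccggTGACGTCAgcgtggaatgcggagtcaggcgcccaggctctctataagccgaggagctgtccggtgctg
Chgb: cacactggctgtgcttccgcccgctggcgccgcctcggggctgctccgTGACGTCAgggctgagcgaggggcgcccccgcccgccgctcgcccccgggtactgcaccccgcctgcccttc
Th: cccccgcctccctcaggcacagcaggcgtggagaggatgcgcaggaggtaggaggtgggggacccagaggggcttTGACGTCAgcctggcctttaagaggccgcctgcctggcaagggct
Chga: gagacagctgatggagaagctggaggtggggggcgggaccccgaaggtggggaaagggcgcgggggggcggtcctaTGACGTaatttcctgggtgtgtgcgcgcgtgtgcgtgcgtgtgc
The element TGACGTCA begins 68 bases before the start site in Scg2, 72 in Chgb and 45 in Th, and the shorter TGACGT begins 44 bases before it in Chga.

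Over the windows of 300 bases that RefSeq gave around start sites, 43 of the 62 genes had at least 1 window. TGACGTCA, searched on both strands, was found for 4 of these 43 (Chgb, Meg3, Scg2 and Th) and in 1.79% of all 32851 windows. Among the 5365 tested genes with a window it was found for 3.15%. TGACGT, which lies within TGACGTCA, was found for 8 of the 43 and for 13.0% of tested genes with a window. CAAGGTCA, a site of steroidogenic factor 1, was found for 1 of the 43 (Dhcr7) and for 1.47% of tested genes. A match of letters is a description of the sequence and not a site shown to be bound.

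Imprinted genes of growth were higher in 9 of 15 measured members, with none lower and a median difference of 1.60. Dlk1, a membrane protein of progenitor cells, measured 1547, 1546, 1201, 2036 and 2935, highest in C3H, against at most 116 in any other body tissue. Its difference was 4.86 (SE 0.17, adjusted p = 3.30e-26). Ndn, necdin, measured 611, 641, 680.1, 622 and 594, above all other arrays (at most 383), a difference of 3.11 (SE 0.19, adjusted p = 7.20e-18). Peg3 and Cdkn1c, both also present in muscle, measured 177 to 253 and 355 to 661, with differences of 1.78 (SE 0.25) and 1.80 (SE 0.20). Meg3, the noncoding RNA beside Dlk1, measured 946, 1039, 334, 272 and 212, so the 129 and B6 arrays were above the other 3. Its second probe set did not show that split, with log2 values of 10.51, 10.60, 9.98, 10.59 and 10.63.

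Other genes stood out by size alone. Abcb1b, a drug efflux transporter that in mouse is abundant in the adrenal, measured 2051, 1193, 1188, 1069 and 1406, against at most 40.8, a difference of 6.51 (SE 0.17, adjusted p = 6.89e-31). Its difference from the nearest tissue was 5.90, larger than for any of the 62 genes but Scg2. Hao2, a peroxisomal oxidase, measured 1878, 1208, 1405, 749 and 836, with a difference of 5.69 (SE 0.34, adjusted p = 8.04e-18), and overlapped with kidney at 625 to 1688. Slc27a3, of the fatty acid transport family, measured 260.3, 215, 240.5, 263 and 289, above every other array. Ly6d, a surface protein of lymphocytes, measured 2639, 1483, 1673, 1445 and 2195, and its spleen arrays ran from 223 to 1888. Fgfr2, a fibroblast growth factor receptor, measured 915, 724, 992, 759.8 and 1032, against at most 374. Abcb1b, Slc27a3 and Fgfr2 did not overlap with any other body tissue, whereas Hao2 and Ly6d did.

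**Figure D2:**
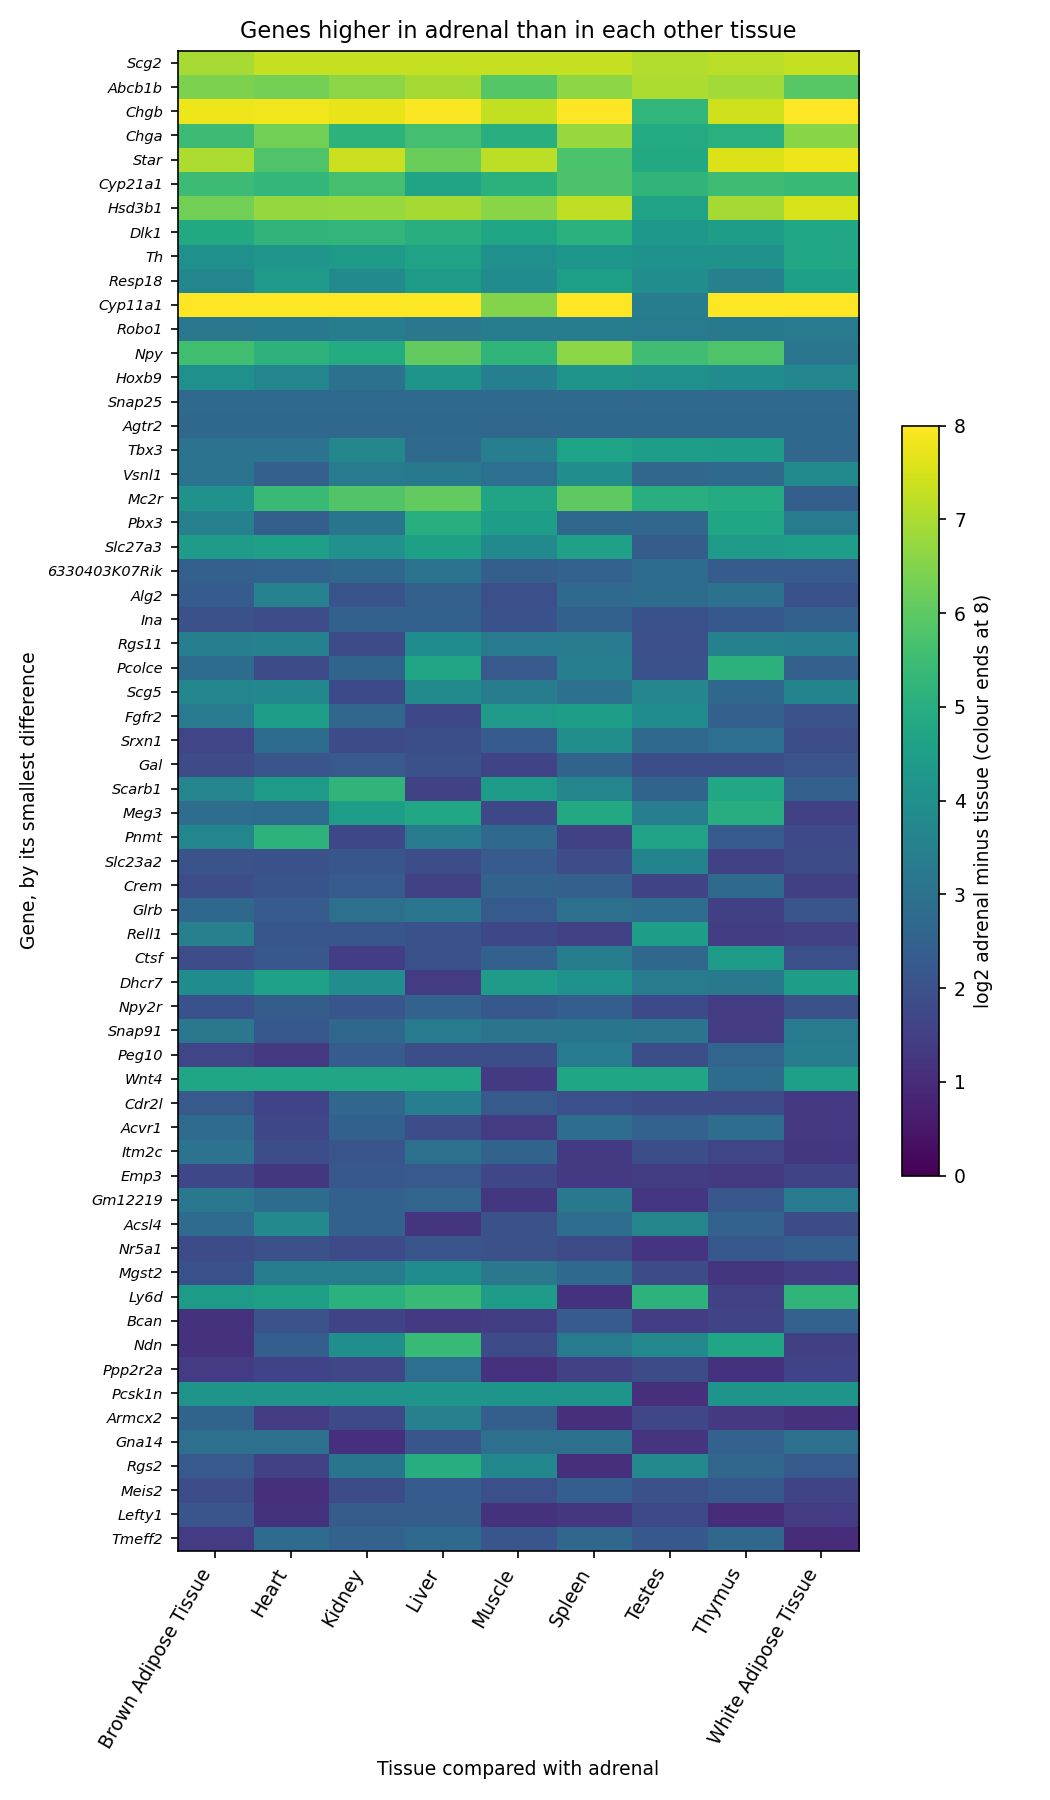
Differences (log2 adrenal minus tissue, colour) of the 62 genes called higher in adrenal than in each of the 9 other body tissues, 1 row per gene in order of its smallest difference and 1 column per tissue. Scg2 leads with a smallest difference of 6.96 and is nearly even across the columns, while Cyp11a1 is lowest in the testes column.

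The 385 genes lower in adrenal were mostly genes of 1 or a few other tissues. Of the 385, 292 were lower than at most 4 of the 9 tissues by the same rule, and 14 were lower than 7 or more. The largest excess over adrenal lay in testes for 87 of them, in thymus for 70 and in liver for 60. Genes of dividing cells were lower in 5 of 8 measured members, with a median difference of -1.06. Top2a, a topoisomerase of dividing cells, was at the floor on all 5 adrenal arrays and measured 585 to 934 in thymus. Genes of heart were lower in 4 of 8 and of slow muscle in 8 of 10. Pgam2, a muscle glycolysis enzyme, measured 186, 14.8, 3.72, -0.32 and 5.61, so the 129 array stood apart, and its difference was -2.94 (SE 0.44, adjusted p = 4.88e-07), the most negative of all genes.

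Fat cell genes were present on all 5 adrenal arrays. Of 7 measured brown fat markers, 5 were higher in adrenal than the mean of the 9 tissues, and of 8 white fat markers, 6 were. None of these was higher than each of the 9. Cidea, a lipid droplet protein of brown fat, measured 3174, 2943, 3229, 2387 and 3211 in adrenal and 7575 to 10413 in brown fat. Adipoq, the adipocyte hormone adiponectin, measured 3458, 3983, 3764, 2672 and 1799 in adrenal and 4511 to 6554 in white fat. Retn, resistin, measured 829, 1813, 1698, 1166 and 823, against 3440.2 to 5527 in white fat. Ucp1, the uncoupling protein that defines brown fat, measured 729.8, 443, 179, 495 and 671, against 1748 to 2949.6 in brown fat. All 5 adrenal arrays lay below the range of the fat depot for each of these 4 genes.

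The summed intensity of the brown fat markers was 32.7% to 38.7% of the brown fat median on the 5 adrenal arrays, and that of the white fat markers was 34.2% to 58.7% of the white fat median. No marker of either list was at the floor on all adrenal arrays. The other tissues outside fat reached 8792 for the brown fat sum, in a heart array that shares some of these genes, and adrenal 6112 to 7233. Of the 527 genes higher in adrenal, 165 (31.3%) were called above both fat depots as well, and 218 had a fat depot as the nearest tissue, brown fat for 112 and white fat for 106. For the cholesterol supply list, 1 of the 7 higher genes was above both fat depots, and for steroid synthesis 6 of 6 were. Among the genes of granins and peptide processing 7 of 8 were above both, and for neuropeptides 2 of 4. Genes that passed the stricter rule are above both depots by definition. In the order of these 4 lists they were 1, 4, 6 and 2. With both fat depots left out of the comparison, 664 genes were higher and 105 were higher than each remaining tissue, including 61 of the 62. The 62 had been selected as higher than each of these remaining tissues, so the count of 61 follows largely from that selection. How far fat cells in the samples shaped these calls was not tested.

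**Figure D3:**
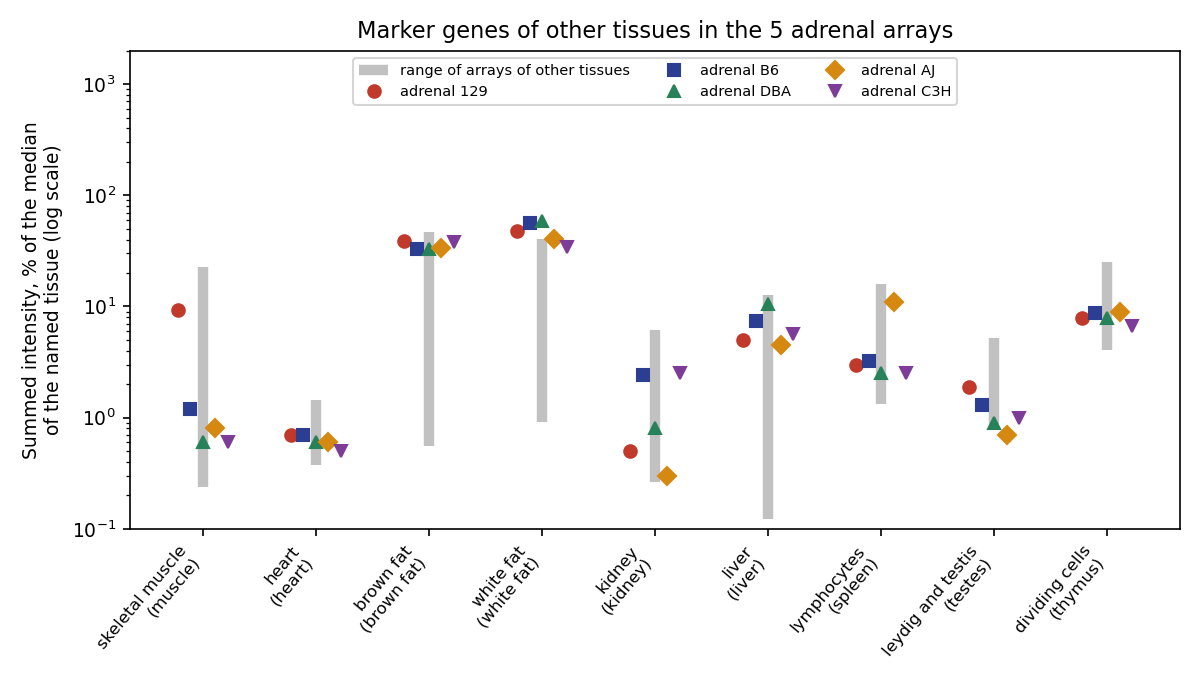
Summed intensity of the marker genes of 9 other tissues or cell types in each adrenal array (coloured points), as percent of the median of the tissue named in brackets (vertical axis, log scale); grey bars give the range of arrays of unrelated body tissues. Fat markers are high on all 5 adrenal arrays (32.7% to 58.7%), whereas among these arrays skeletal muscle is highest in 129 (9.3%) and lymphocytes in AJ (10.9%).

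Each adrenal array was also compared with what its tissue and its strain would give together, the deviation of that array in the fit of all 50. With 1 array for a tissue in a strain, a strain effect, the animal, the dissection and the hybridization cannot be told apart. In adrenal 129, genes of skeletal muscle were raised, as 20 of 21 markers were highest in 129 among the 5 adrenal arrays. Their sum was 15491 in 129, and 1997, 1052, 1275 and 1007 in B6, DBA, AJ and C3H, which is 9.3% of the muscle median in 129 and 0.6% to 1.2% in the others. Acta1, skeletal muscle actin, measured 3455, 295, 12.1, 4.61 and 8.32. Myh1, a fast myosin heavy chain, measured 616, 6.81, 9.10, 5.61 and 1.23, and Atp2a1, the calcium pump of fast fibres, measured 1871, 138, 35.9, 26.8 and 40.5. The 129 array was the highest in each case, B6 second for Acta1 and Atp2a1, and the rest low. Only Myh2 was at the floor on all 5 arrays.

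No gene passed the test for adrenal 129, higher or lower (0% of those tested in either direction), and 314 of 6680 had an unadjusted p under 0.05 in limma. Chance alone would give such a p for about 1 in 20 genes. Of the 20 muscle markers tested, 19 had a deviation of at least 1, with a median of 3.65 beside 0.01 for all genes. The deviation of Myh1 was 5.93 (SE 1.32, adjusted p = 1.28e-01) and that of Atp2a1 5.34 (SE 1.36, adjusted p = 1.70e-01). Muscle genes also varied among the brown fat arrays of the same fit, where their sum ran from 1935 to 37468. With the brown fat arrays left out, 14 genes were called in adrenal 129, all of them higher and 10 of them on the muscle list, Myh1, Atp2a1, Tnnt3 and Ckm included. With the thymus arrays left out, 8 genes were called, 7 of them higher. Of the 20 muscle markers, 4 were lower in adrenal than the mean of the 9 with the 129 array and 14 without it, and the 1 called higher, Pygm, was no longer called. The counts of higher and lower genes on the 14 adrenal lists were the same without 129.

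In adrenal B6, 4 genes were called higher (0.0599% of those tested) and none lower (0%). Plet1, a surface protein of epithelial progenitors, measured -1.87, 224, 26.2, 2.58 and 1.09, a deviation of 4.15 (SE 0.64, adjusted p = 6.36e-04). Aqp2, the water channel of the collecting duct, measured 12.1, 239, 24.7, 8.42 and 15.1, a deviation of 3.67 (SE 0.73, adjusted p = 2.15e-02). Muc1, an epithelial mucin, measured 17.3, 181, 9.42, 11.5 and -0.98, a deviation of 3.59 (SE 0.69, adjusted p = 1.77e-02). Cep131, a centrosome protein, was the fourth, with 1.91 (SE 0.39, adjusted p = 2.34e-02). Plet1 was called in 20 of 20 alternative analyses and Muc1 in 21 of 22. Aqp2 was called in 20 of 22 and was lost without the muscle arrays, and Cep131 in 12 of 20, being lost without the C3H adrenal array or without the heart, kidney or muscle arrays. Without the DBA adrenal array 9 genes were called in B6, and without the 129 array 7. Without the white fat arrays 7 were called, and without the kidney or the muscle arrays 2. Kidney held the highest Aqp2 of the other tissues, at 463 to 1612, and the B6 array stood apart from the other 4 for all of these. Cdh16, a kidney cadherin, was also highest in B6, at 14.3, 141, 9.04, -2.28 and 15.1, but was not called. The kidney marker sum was 917 in B6 and 965 in C3H, and 124 to 320 in the other 3, which is at most 2.5% of the kidney median. Body tissues other than kidney reached a sum of 2364, in muscle B6. The C3H value came mainly from Kap, an androgen-regulated kidney protein, which measured 24.3, 351, 146, 19.3 and 754.

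In adrenal DBA, 3 genes were higher (0.0449% of those tested) and 1 lower (0.015%). The 3 higher genes were Slc16a7, Cyp2d10 and Apoh, and the last 2 are liver genes. Slc16a7 was called in 11 of 22 alternative analyses, Apoh in 10 of 22 and Cyp2d10 in 17 of 21. The count of 4 was 11 without the B6 adrenal array, 9 without thymus, 2 without the 129 or the AJ adrenal array or without testes, and 1 without liver or without spleen. Among the adrenal arrays, the liver marker sum was highest in DBA, at 7899 against 3342 to 5522 in the other 4, with 8 of 9 markers highest in DBA. Body tissues other than liver reached a sum of 9607, in kidney 129. Alb, serum albumin, measured 26.3, 165, 1959.6, 45.5 and 810.4, high in DBA and C3H, and liver itself ran from 12719 to 16358. Apoa1, apolipoprotein A-I, measured -2.59, 31.8, 416, 15.0 and 145 with the same 2 arrays on top. The gene called lower in DBA was Dbp, a transcription factor of the circadian output, which measured 282, 364, 59.9, 360.2 and 453, a deviation of -2.88 (SE 0.51, adjusted p = 8.57e-03). Dbp was called in 21 of 22 alternative analyses and was lost with the strain term left out. Nr1d1, a repressor in the circadian clock, measured 542, 542, 81.8, 498 and 402 and was lowest in the same array, with a deviation of -2.61 (SE 0.68, adjusted p = 2.12e-01) that did not pass. The labels used here give no time of day for any array.

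In adrenal AJ, 10 genes were higher (0.15% of those tested) and 3 lower (0.0449%). Of the 10, Cd79a, Cd22, Cd72, Ighv14-2 and Igkv6-14 belong to B cells, Cd3e to T cells, and Ltb and Ccl5 are lymphocyte cytokine genes. Cd79a, a subunit of the B cell receptor, measured 51.1, 31.4, 34.0, 251 and 24.0, a deviation of 3.03 (SE 0.58, adjusted p = 7.13e-03). Cd3e, a subunit of the T cell receptor complex, measured -5.23, -7.03, 1.17, 58.8 and -1.38, a deviation of 2.44 (SE 0.43, adjusted p = 6.96e-03). Ltb, lymphotoxin beta, measured 20.5, 0.99, 1.54, 233 and 7.80. The AJ array was far above the other 4 for all of them. Cd79a, Cd3e and Ltb were each called in 21 of 22 alternative analyses, Cd79a being lost with both fat depots left out. Marco, a macrophage receptor, and Arhgap45 completed the 10 and were each called in 9 alternative analyses. The count of 13 was 29 without the muscle arrays, 39 without the C3H adrenal array, and 6 without the DBA adrenal array or without spleen. The lymphocyte marker sum was 1992 in AJ and 451 to 590 in the other 4, which is 10.9% of the spleen median in AJ and 2.5% to 3.2% elsewhere. Among the adrenal arrays, 10 of 11 markers were highest in AJ. Body tissues other than spleen and thymus reached a sum of 2922, in white fat DBA. The part of lymphocytes in the AJ values was not tested.

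In adrenal C3H, no gene was higher (0%) and 1 was lower (0.015%). Zbtb20, a zinc finger repressor, measured 369, 475, 364, 79.6 and 25.1, a deviation of -3.23 (SE 0.53, adjusted p = 1.83e-03). The AJ array was the next lowest for Zbtb20. The 3 genes called lower in AJ were Med1, Ccnt1 and Tex261, and Ccnt1, a subunit of the elongation factor P-TEFb, measured 79.2, 108, 87.0, 12.2 and 15.4, low in AJ and C3H alike. Zbtb20 was called in 22 of 22 alternative analyses, Med1 and Tex261 in 18 of 22 and Ccnt1 in 6 of 22. Other genes, picked after their values were seen, were also low in AJ and C3H. Igf1r, the IGF1 receptor, measured 284, 509, 258, 29.1 and 23.7, Nfix, a nuclear factor I protein, measured 336, 317, 269, 32.0 and 30.5, and Mapt, the microtubule protein tau, measured 215, 247, 166, 8.97 and -5.69. None of these 3 passed the test in AJ or C3H. The AJ array enters the tissue mean against which C3H is set, and the reverse. Without the AJ adrenal array, 30 genes were called lower and 1 higher in C3H, and without the C3H adrenal array, 28 were called lower and 11 higher in AJ. In this pair of analyses the deviation of Igf1r was -3.63 in C3H (adjusted p = 2.55e-05) and -3.23 in AJ (adjusted p = 3.13e-04). That of Nfix was -3.41 in C3H (adjusted p = 2.12e-08) and -3.32 in AJ (adjusted p = 4.34e-08). That of Mapt was -4.45 in C3H (adjusted p = 1.10e-05) and -4.49 in AJ (adjusted p = 1.26e-05). Both analyses share the 129, B6 and DBA adrenal arrays. Without the testes arrays the C3H count was 6, and it was 2 without adrenal 129, brown fat or liver. In the other 9 tissues the median of Nfix was 740 over the AJ and C3H arrays and 457 over the 129, B6 and DBA arrays, so the low values were not seen there. A second probe set for Nfix gave adrenal log2 values of 6.19, 6.46, 6.14, 6.12 and 5.64, without that split. The 2 other probe sets for Mapt had AJ and C3H lowest, with log2 values of 7.16, 6.99, 6.84, 4.22 and 3.86 for one and 6.87, 6.45, 5.32, 4.54 and 4.44 for the other. The 3′ to 5′ ratio of Gapdh was lowest in the same 2 adrenal arrays, at 0.95 in AJ and 0.962 in C3H against 1.08 to 1.24 in the other 3, and the same arrays had the most probe sets at the floor, 23.6% in AJ and 24.4% in C3H against 19.5% to 22.2%. Their median intensities were also the lowest, at 49.4 and 46.8 against 51.6 to 55.3. The part of these measures in the low values was not tested.

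**Figure D4:**
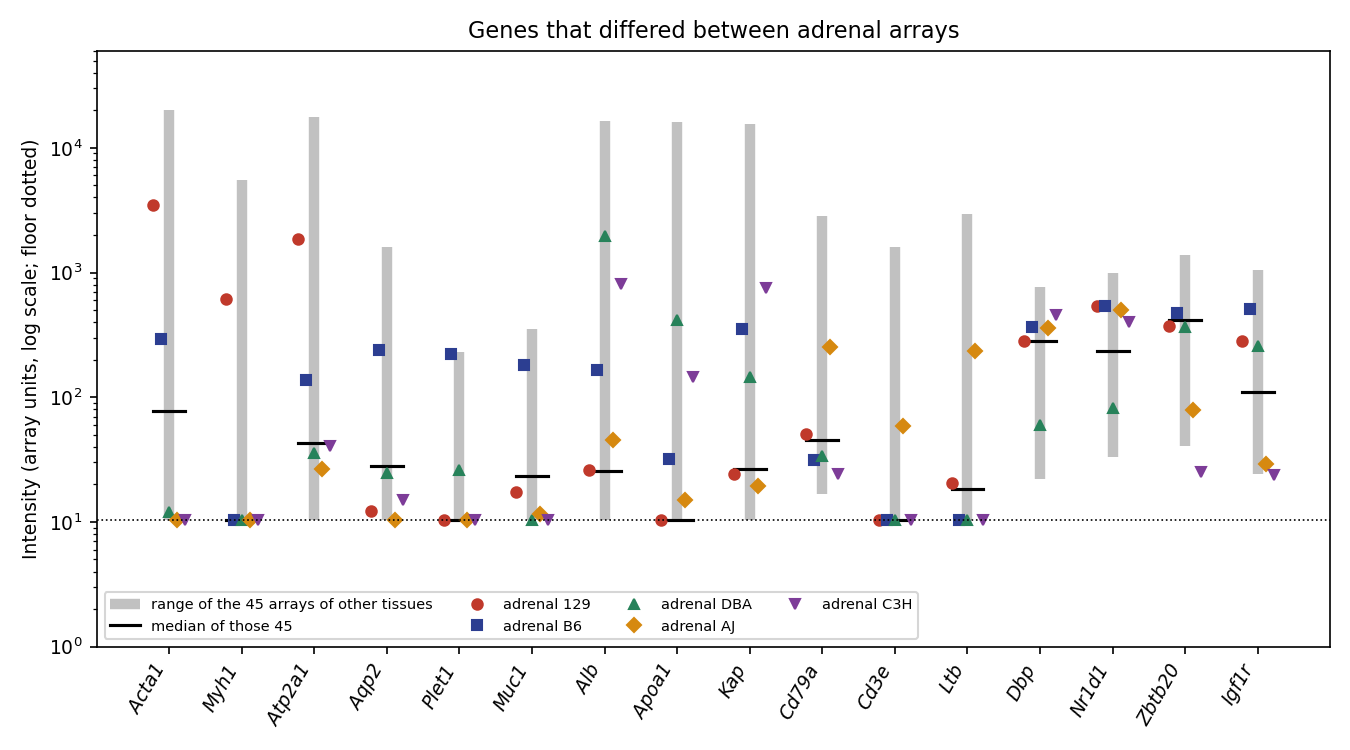
Intensity (vertical axis, array units, log scale) of 16 genes that differed between the 5 adrenal arrays (coloured points by strain); grey bars give the range and black ticks the median of the 45 arrays of other body tissues, and the dotted line is the floor of 10.4. Muscle genes stand out in 129, Aqp2, Plet1 and Muc1 in B6, Alb and Apoa1 in DBA and C3H, and Cd79a, Cd3e and Ltb in AJ, while Dbp and Nr1d1 are low in DBA.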

How the data were processed

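Total RNA of 10 body tissues and 24 neural tissues of inbred mice was hybridized to Affymetrix arrays, per the labels' protocols. The deposited table holds linear intensity values of probe sets, of which 5.98% were below 0. How the authors computed, background-corrected or scaled them is not given in the sources used here, and the 75th percentiles of the arrays were nearly equal as deposited. Precision is limited by the number of arrays.

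Of 12488 probe sets, 66 were controls. Symbols came from the platform annotation: 10833 probe sets carried 1 symbol, 396 several and 1193 none. The probe set with the highest mean over the 148 arrays used stood for a gene, which gave 8251 genes; 2 neural arrays with identical values were left out. Values below the 20th percentile (10.4) were set to it and log2 was taken. A gene was tested if its log2 mean exceeded 5.73, the overall median, in 1 or more body tissues.

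limma 3.58.1 (R 4.3.3) was run on the 50 body arrays with terms for tissue and strain and a trend in the prior variance. Samples were matched by strain, not by animal, so strain served as the block. The deviation of an array came from a term for that array alone in the same fit. Each comparison had its own Benjamini-Hochberg adjustment of p-values over all genes tested. Figures were drawn with matplotlib 3.10.9 in Python 3.11.15.

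The fit was tested on simulated data. The named genes were the markers, members of the gene lists, and the genes with the largest differences or deviations, with others said to be picked later. The tissue, the lists and the markers were chosen with earlier results of these data known. Alternatives changed the floor, the filter, the normalization, the probe set rule, the strain term and the arrays included.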

Additional observations from a re-analysis of the deposited data

Results flagged for a closer look

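Among the 5 adrenal arrays, 1 array lay apart from the other 4 for 18 of 126 genes named above. There its gap to the nearest array was over 0.71 of the whole range, both taken on the log2 scale with the floor. The intensities printed below are linear. Chance gives this for about 1 in 20 groups, and many of these genes were named because an array stood out. That share does not hold where the other 4 arrays all stood at the floor, as for Myh1, Cd3e, Ccl5 and Cd22. In adrenal 129 they were Myh1 at 616, Myl1 at 2260.3, Ckm at 159 and Pgam2 at 186, all high and all muscle genes, and Srxn1, sulfiredoxin, low at 139 against 329.7 to 434 in the other 4. In adrenal B6, Aqp2 (239), Cdh16 (141) and Muc1 (181) were high. In adrenal AJ, Cd3e (58.8), Ltb (233), Ccl5 (122), Cd22 (66.5) and the antibody light chain gene Igkv6-23 (1432) were high. In adrenal DBA, Dbp (59.9) and Nr1d1 (81.8) were low. In adrenal C3H, Chga (2471), Gch1 (148) and Gata2 (217), members of the granin, catecholamine and sympathoadrenal lists, were high.

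Single arrays departed from their tissue and strain together for 22 genes in limma. In adrenal B6 the deviations, on the log2 scale, were 4.15 for Plet1, 3.67 for Aqp2, 3.59 for Muc1 and 1.91 for Cep131. In adrenal DBA they were 2.38 for Slc16a7, 2.08 for Cyp2d10, 1.92 for Apoh and -2.88 for Dbp. In adrenal AJ they were 3.67 for Igkv6-14, 3.63 for Ltb, 3.37 for Ccl5, 3.03 for Cd79a, 3.02 for Ighv14-2, 2.84 for Cd22, 2.44 for Cd3e, 2.43 for Cd72, 2.11 for Marco and 1.98 for Arhgap45. The lower genes of adrenal AJ had deviations of -3.22 for Med1, -2.28 for Ccnt1 and -1.47 for Tex261. In adrenal C3H the value was -3.23 for Zbtb20.

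Probe sets without a single gene symbol were not part of the comparisons above. Of 869 tested in the same way, 7 were higher in adrenal than in each of the 9 tissues. Their differences from the mean of the 9 were 3.93 (probe set 92754_at), 3.18 (160767_at), 2.91 (95887_at), 2.77 (92374_at), 2.10 (93139_at), 1.62 (162122_f_at) and 1.59 (162497_r_at). Probe set 92754_at measured 1023 to 1358 in adrenal and at most 189.6 on the other 45 arrays.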

How the results depend on the processing

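Without the replicate block, that is with the strain term left out, the main counts were 523 higher, 383 lower and 60 higher than each tissue, and the pairing changed none of these by over 1.5 times. For single arrays the count without the block was 20 in AJ and 8 in C3H. With the floor at the 10th percentile, 2 genes were lower than each tissue, and 5, 1, 1 and 4 genes deviated in 129, B6, DBA and AJ. With the floor at the 40th percentile, 207 genes were lower than the mean, and 15, 19 and 5 deviated in B6, DBA and C3H. The filter at the 75th percentile gave 41 genes higher than each tissue, having fewer genes to test, and 2 deviating in B6. With no filter, 1 gene deviated in 129 and 3 in C3H, and C3H had 3 with quantile normalization, 2 with the median of probe sets and 2 without the variance trend. With both fat depots left out, an analysis chosen after the fat genes were seen, 601 genes were lower, 105 were higher than each tissue, and 11, 4 and 2 deviated in 129, AJ and C3H. Leaving out 1 adrenal array or 1 other tissue gave 479 to 594 higher, 341 to 479 lower, 58 to 72 higher than each, 0 to 2 lower than each and 1772 to 1790 higher than testes. The same gave deviation counts of 0 to 14 in 129, 2 to 9 in B6, 1 to 11 in DBA, 6 to 39 in AJ and 1 to 31 in C3H. For 28 of the genes named here, 669 of 670 values under these alternatives kept direction and call, the exception being Nr3c1. The other named genes are not part of that count. Among the 527 genes called higher, 419 to 527 kept that call over the alternatives, fewest with the filter at the 75th percentile. Among the 385 called lower it was 181 to 385, fewest with the floor at the 40th percentile. With the median of probe sets, 457 kept the higher call and 327 the lower call. Of the 62 genes, 32 kept the call in every alternative and 53 without any 1 adrenal array. Deviations of single arrays were not fitted with the within-strain differences. Probe sets near the floor limit what can be seen, as 19.5% to 24.4% of them stood there on an adrenal array.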

Other observations

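Other cell types of the gland were described by their own lists. Of 10 endothelial genes, 3 were higher in adrenal than the mean of the other tissues (Kdr, Tek and Tie1, all receptors) and none lower, with a median difference of 0.61. Of 10 genes of fibroblasts and matrix, 3 were higher, among them Sparc and Col6a1, with a median of 0.37. Of 6 genes of Schwann cells and glia, 2 were higher, Pmp22 and S100b. Among 11 macrophage genes, 2 were lower, Adgre1 and Aif1. For lymphocytes 1 of 11 was lower, for kidney 3 of 11 were lower, and for liver 1 of 9, Cyp2e1, was higher. Over all genes tested, 7.89% were higher and 5.76% lower. Neither of 2 red cell genes was called, and 3 of 5 genes of Leydig cells and testis were lower. Of 18 genes of mitochondria and redox defence, 3 were higher, with a median of 0.33. Mgst1, a glutathione transferase of membranes, measured 1115, 1862, 2143, 1684 and 1644, with a difference of 2.05 (SE 0.24, adjusted p = 1.87e-09), and Prdx3, a mitochondrial peroxiredoxin, measured 1382, 1985, 1431, 1662 and 1586, with a difference of 1.31 (SE 0.14, adjusted p = 1.33e-10). Liver was higher for Mgst1, at 4060 to 5091, and adrenal was not called above brown fat (-0.595) or white fat (0.052). For Prdx3, adrenal was not called above brown fat (-0.137), heart (0.101), muscle (0.395) or kidney (0.882). Of 6 genes of the inner cortex and X zone, 2 were higher, Mc2r and Inha.

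The 62 genes were also looked up in the 24 neural tissues, as a description with no test, since neural arrays covered only the strains 129, B6 and DBA. For 31 of the 62 the adrenal mean was above all 24 neural tissue means, and for the other 31 at least 1 neural tissue was higher. Cyp11a1 and Star reached tissue medians of at most 30.7 and 58.3 in neural tissue. Medulla genes were higher in a neural tissue, as Chgb was in pituitary at a median of 5715, Scg2 in pituitary at 5028 and Snap25 in cortex at 6680.4. Pnmt reached 2856 in pituitary, above every adrenal array at the probe set used. The second probe set for Pnmt set adrenal further apart from the other body arrays, with 5.10 against 2.98 on the log2 scale. It was not looked up in neural tissues. Dlk1 reached 6413 in pituitary.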
